A study of Mus musculus with 6 samples.

Results

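The TNF receptor family is a set of membrane receptors that share cysteine-rich extracellular repeats and differ in what they recruit inside the cell. Here 10 of its members were followed in mouse spleen: Tnfrsf21, Tnfrsf1a, Fas, Tnfrsf10b and Tnfrsf25, which carry a death domain, and Tnfrsf1b, Ltbr, Cd27, Tnfrsf9 and Tnfrsf4, which do not. They were picked by name, with earlier results of these data known, and matched to probe sets annotated to exactly 1 gene symbol. All 10 were found among the 22180 genes measured, each by 1 probe set. Death domains recruit the adaptors TRADD and FADD and can lead to caspase activation, whereas the other receptors bind TRAF proteins and signal mainly to NF-kB. In spleen, Ltbr on stromal cells is needed to build the white pulp, and Cd27, Tnfrsf9 and Tnfrsf4 costimulate T cells. AIMP2, which holds together a complex of tRNA synthetases, is known from cell studies to bind TRAF2 and to promote death after TNF, and its splice form DX2, which lacks part of the protein, to compete with it there.

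RNA was measured on 6 Affymetrix arrays, 1 for each of 3 DX2 spleens and 3 control spleens. The DX2 mice carried CAG-rtTA, a doxycycline-dependent activator under the broadly active CAG promoter, and 1 copy of a TRE-driven DX2 transgene, TRE DX2/+. The controls were littermates with TRE DX2/+ and no activator. All mice were 1 year old and had eaten pellets with doxycycline (6.25 mg/kg) from the age of 8 weeks, so that doxycycline was common to both groups and rtTA was present in the DX2 mice only, and DX2 and rtTA cannot be told apart. Values are RMA values on the log2 scale, where 1 unit is a doubling. They are given for replicates 1, 2 and 3 in that order, and differences are DX2 minus control.

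Facts that touch every result come first. No probe set was annotated to Aimp2 alone. The probe set shared by Aimp2 and Eif2ak1 read 6.23, 6.50 and 6.51 in DX2 spleens and 6.11, 6.34 and 6.03 in control spleens, which gives no clean check of the transgene. The Y-linked Eif2s3y was high in all DX2 spleens (8.00 to 8.34) and in control 3 (8.52) but low in control 1 (3.21) and control 2 (3.40), so sex overlapped in part with genotype. Marker lists of spleen cells were present in both groups. The mean of 12 red pulp macrophage markers was 9.49 to 9.63 in DX2 and 8.88 to 9.10 in control spleens, and that of 8 B cell markers was 8.14 to 8.92 in DX2 and 9.94 to 10.34 in control spleens. DX2 1 stood apart in these markers, with the highest mean of 8 neutrophil markers (9.44, against 7.16 to 8.04 on the other arrays) and the lowest of 10 T cell markers (6.63, against 7.78 to 8.10). Array weights, which are lower for arrays that deviate more over all genes, were lowest for DX2 2 (0.52) and DX2 1 (0.63) and highest for DX2 3 (2.09). The mean of 4 erythroid markers was 9.81, 7.65 and 9.52 in DX2 spleens and 6.54, 8.26 and 8.17 in control spleens. Spleens are mixtures, so fewer cells of a type and less RNA per cell cannot be told apart.

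Promoter windows are shown for 4 members: Tnfrsf21 and Tnfrsf1a, examples of receptors that were higher in all DX2 spleens, and Fas and Tnfrsf9, examples of those that differed widely among the DX2 spleens. Each is the 250 bases before a RefSeq transcript start in GRCm38.p6, on the plus strand, 5′ to 3′. Capitals mark matches on either strand to GGNNTTTCC (a kB-like motif), TGANTCA (AP-1), GGGCGG (Sp1), the TATA box motif TATAAA or the CCAAT box, and no matches overlap in these windows. The windows lie at chr17:43016305-43016554 for Tnfrsf21, chr6:125349473-125349722 for Tnfrsf1a, chr19:34290409-34290658 for Fas, and chr4:150919905-150920154 and chr4:150927749-150927998 for the 2 starts of Tnfrsf9, the second of which lies inside the gene.
Tnfrsf21: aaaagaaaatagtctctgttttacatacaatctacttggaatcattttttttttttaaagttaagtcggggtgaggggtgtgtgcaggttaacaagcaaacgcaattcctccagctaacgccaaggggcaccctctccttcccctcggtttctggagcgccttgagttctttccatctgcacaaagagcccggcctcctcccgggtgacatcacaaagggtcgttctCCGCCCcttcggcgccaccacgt
Tnfrsf1a: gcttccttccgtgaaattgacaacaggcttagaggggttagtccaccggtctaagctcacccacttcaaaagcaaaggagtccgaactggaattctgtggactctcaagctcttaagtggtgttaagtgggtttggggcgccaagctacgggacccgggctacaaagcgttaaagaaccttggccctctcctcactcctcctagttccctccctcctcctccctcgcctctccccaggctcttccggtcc
Fas: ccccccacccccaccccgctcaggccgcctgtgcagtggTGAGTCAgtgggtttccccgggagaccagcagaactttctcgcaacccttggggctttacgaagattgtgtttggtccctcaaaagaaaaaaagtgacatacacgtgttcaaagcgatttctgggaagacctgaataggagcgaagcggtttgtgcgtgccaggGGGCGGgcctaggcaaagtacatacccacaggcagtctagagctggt
Tnfrsf9, first start: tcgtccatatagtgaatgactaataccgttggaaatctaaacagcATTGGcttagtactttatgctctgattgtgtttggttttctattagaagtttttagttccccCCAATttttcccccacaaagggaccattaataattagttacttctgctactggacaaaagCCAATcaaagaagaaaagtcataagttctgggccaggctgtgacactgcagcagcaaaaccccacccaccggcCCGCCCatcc
Tnfrsf9, second start: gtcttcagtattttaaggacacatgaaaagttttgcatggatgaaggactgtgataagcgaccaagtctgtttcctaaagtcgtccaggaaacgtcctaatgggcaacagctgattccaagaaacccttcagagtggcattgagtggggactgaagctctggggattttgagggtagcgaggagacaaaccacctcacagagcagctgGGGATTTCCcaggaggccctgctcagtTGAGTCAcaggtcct

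The windows differed in what they held. The Tnfrsf21 window had 1 Sp1 match, at position -23 from the start, and the Tnfrsf1a window had none of the 5 motifs. Fas had an AP-1 match at -211 and an Sp1 match at -47. The first start of Tnfrsf9 had 3 CCAAT matches and 1 Sp1 match, and its second start had a kB-like match at -42 and an AP-1 match at -15. The window of Tnfrsf4, which also differed widely among the DX2 spleens, had none of the 5 motifs. Among 32851 promoter windows of the same length, 4.93% held the kB-like motif, 6.75% the AP-1 motif, 32.7% the Sp1 motif, 12.4% the TATA box and 33.8% the CCAAT box. In all, 9 members (all but Tnfrsf10b) had 11 windows, and the kB-like motif was in 2 of these, the second start of Tnfrsf9 and 1 start of Tnfrsf25. Such matches are letters in a window and were not tested as binding sites.

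Among the death domain receptors, Tnfrsf21, Tnfrsf10b and Tnfrsf1a were higher in every DX2 spleen than in any control spleen. Tnfrsf21 was 1.74-fold, Tnfrsf10b 1.58-fold and Tnfrsf1a 1.45-fold higher. None of them, and none of the 10 members, reached an adjusted p under 0.05 (limma, with Benjamini-Hochberg adjustment over 22180 genes). Over all genes 0.316% passed. At an unadjusted p under 0.05 there were 3 of 10 members against 16% of all genes, and these were the same 3 receptors. Groups that did not overlap, with DX2 higher, were found for 3 of 10 members, all with a death domain, against 10.7% of all genes. With DX2 lower they were found for 0 members, against 11.2% of all genes.

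**Figure D1:**
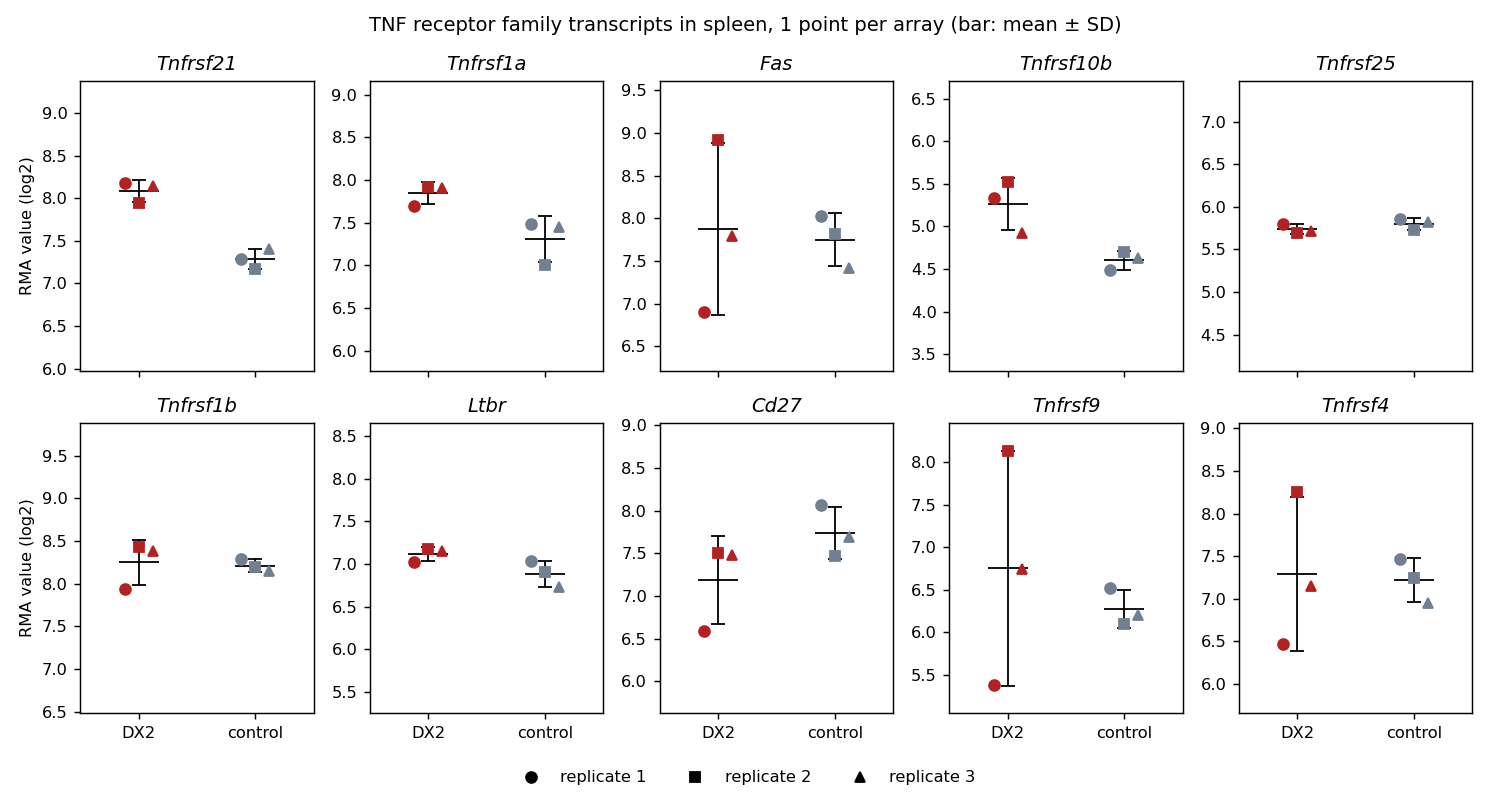
RMA values (log2, y axis) of the 10 receptors in DX2 and control spleens, 1 point per array with the mean ± SD and a y axis of the same span in every panel. DX2 points lie above all control points for Tnfrsf21, Tnfrsf1a and Tnfrsf10b, while the DX2 points of Fas, Tnfrsf9 and Tnfrsf4 fall both above and below the controls.

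Tnfrsf21, also called DR6, is a death receptor that in mice restrains T helper and B cell responses. It read 8.17, 7.94 and 8.14 in DX2 spleens, against 7.28, 7.17 and 7.40 in control spleens. The lowest DX2 value lay above the highest control value by more than either group's own range. The difference was 0.80 (SE 0.12; 95% interval 0.52 to 1.07), the 78th smallest p of 22180 genes (unadjusted p = 0.000200), and it missed the threshold over all genes at adjusted p = 0.0570 (limma). It passed in 4 of 17 refits: without DX2 2 (0.87, adjusted p = 0.0395, limma), when the 40% dimmest genes were left out (adjusted p = 0.0417), with array weights (0.0235) and after a second quantile normalization (0.0461). In the other 13 it did not pass. Among these were the fits without any other single array (adjusted p = 0.0882 to 0.231, limma), the replicate block (0.200) and arrays centred on their medians (0.0580). Against control 3, the control that like all DX2 spleens had high Y-linked transcripts, the difference was 0.68, and with a sex term it had adjusted p = 0.421.

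The genes whose pattern over the 6 arrays was most like that of Tnfrsf21 were Man1c1, a mannosidase of the Golgi, the matrix protease Adamts5 and the nuclear kinase Hipk2. Likeness was the root mean square difference of values centred on each gene's mean, which was 0.068, 0.069 and 0.070 on the log2 scale over 4075 candidate genes. Their differences between groups were 0.71, 0.81 and 0.74, with adjusted p of 0.0587, 0.0577 and 0.0638 (limma). They share the arrays and the contrast with Tnfrsf21, and the measure is a description.

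Tnfrsf1a encodes the main TNF receptor of most cell types, which binds TRADD. It read 7.69, 7.92 and 7.91 in DX2 spleens and 7.48, 7.00 and 7.45 in control spleens. The groups did not overlap, and control 2 was the lowest array. The difference of 0.53 (SE 0.16; 95% interval 0.16 to 0.90) did not pass (adjusted p = 0.173, limma) and was 0.38 without control 2 and 0.39 against control 3 alone.

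Tnfrsf10b, the mouse receptor for the death ligand TRAIL, is a known target gene of p53. It read 5.34, 5.53 and 4.92 in DX2 spleens, against 4.49, 4.70 and 4.62 in control spleens. DX2 3 was the nearest to the controls and still above them. The difference of 0.66 (SE 0.17; 95% interval 0.27 to 1.05) had adjusted p = 0.129 (limma). Only 39.8% of genes had a lower mean, so Tnfrsf10b was among the 40% dimmest. The floor of detection is unknown, so the size of its difference is uncertain.

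Markers of other cells moved with these 3 receptors. Of 12 red pulp macrophage markers, 8 were higher in every DX2 spleen than in any control spleen, including Csf1r and Vcam1, against 10.7% of all genes. Groups overlapped for Adgre1 and Cd68, and for Slc40a1 and Hmox1, which were lower on average in DX2 (-0.33 and -0.03). The mean of the list differed by 0.57. Tnfrsf1a and Tnfrsf21 are not confined to one cell type, and the part of macrophage content in their differences was not tested.

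Fas and Tnfrsf25 complete the death domain receptors, and their group means lay close together. Fas, the receptor for Fas ligand that removes activated lymphocytes, read 6.90, 8.92 and 7.79 in DX2 spleens and 8.03, 7.81 and 7.41 in control spleens. DX2 1 was the lowest and DX2 2 the highest of all 6 arrays, 4.03-fold apart. The difference of 0.12 (95% interval -0.94 to 1.18; adjusted p = 0.930, limma) became -0.40 without DX2 2, -0.05 without control 3 and 0.60 without DX2 1. Tnfrsf25, the receptor DR3 for the ligand TL1A on T cells, read 5.80, 5.69 and 5.71 in DX2 spleens and 5.86, 5.72 and 5.82 in control spleens. It was the least variable member, with a difference of -0.07 (95% interval -0.30 to 0.17; adjusted p = 0.802, limma). The sign of that difference turned to 0.03 both after a second quantile normalization and when arrays were centred on their medians, which moved the median of all genes to 0.07 and 0.10, against 0.01 as reported.

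**Figure D2:**
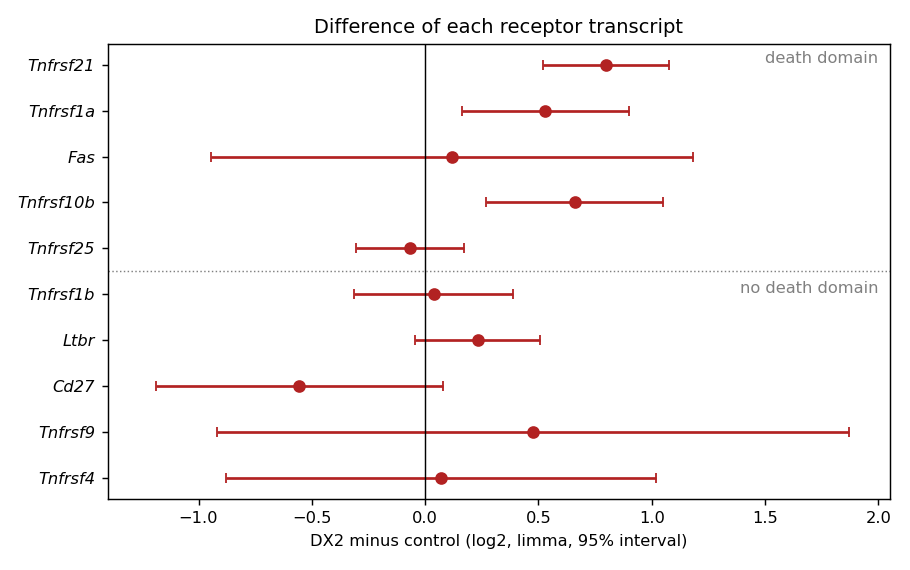
Difference of each receptor, DX2 minus control on the log2 scale (x axis), with its 95% interval from limma, death domain receptors above the dotted line. The intervals of Tnfrsf21, Tnfrsf1a and Tnfrsf10b lie above 0, without adjustment for the 22180 genes tested, and those of Fas, Tnfrsf9 and Tnfrsf4 are the widest.

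Among the receptors without a death domain, no group pair was free of overlap, and the members differed mainly in how far the DX2 spleens lay from each other. Tnfrsf9 and Tnfrsf4, both induced on activated T cells, varied most, and Cd27 was lower on average in DX2. The DX2 values spanned 0.48 on the log2 scale for Tnfrsf1b and 0.15 for Ltbr. The median difference of these 5 was 0.07, against 0.53 for the 5 death domain receptors and 0.01 for all genes.

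Tnfrsf9, also called CD137, costimulates T cells and NK cells after activation. It read 5.38, 8.13 and 6.75 in DX2 spleens, against 6.53, 6.10 and 6.20 in control spleens. DX2 2 was 6.75-fold above DX2 1, while the controls lay within 0.43 of each other on the log2 scale. The difference of 0.48 had a wide interval (-0.92 to 1.87, 95%; adjusted p = 0.749, limma) and was -0.21 without DX2 2 and 1.16 without DX2 1.

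Tnfrsf4, also called OX40, prolongs T cell responses and is high on regulatory T cells in mice. It read 6.47, 8.25 and 7.15 in DX2 spleens and 7.47, 7.24 and 6.96 in control spleens. The order of the DX2 spleens was that of Tnfrsf9, with DX2 1 lowest and DX2 2 highest of all arrays. The difference was 0.07 (95% interval -0.88 to 1.02; adjusted p = 0.957, limma). It became -0.41 without DX2 2, -0.06 without control 3, -0.01 with array weights and 0.48 without DX2 1.

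Cd27 marks naive and memory T cells and, in mice, activated B cells and NK cell subsets, and its ligand is CD70. It read 6.59, 7.50 and 7.48 in DX2 spleens, against 8.07, 7.46 and 7.70 in control spleens. DX2 1 was the lowest and control 1 the highest array, and the other 4 lay close together. The difference of -0.55 (SE 0.27; 95% interval -1.19 to 0.08), a 1.47-fold lower mean, did not pass (adjusted p = 0.378, limma) and was -0.25 without DX2 1. By the same likeness measure, Zfp36l1, an RNA-binding protein that promotes mRNA decay, was nearest to it (0.075), followed by Abi3bp and the non-coding Snhg18 (0.10 and 0.10).

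Tnfrsf1b, the second TNF receptor, which binds TRAF2 directly, read 7.94, 8.42 and 8.38 in DX2 spleens and 8.29, 8.20 and 8.15 in control spleens. Its difference was 0.04 (95% interval -0.31 to 0.39; adjusted p = 0.934, limma), so that a change beyond 1.31-fold higher lay outside the interval. The sign turned to -0.05 without DX2 2 and -0.03 without DX2 3. Ltbr, the receptor for lymphotoxin and for Tnfsf14, read 7.03, 7.18 and 7.15 in DX2 spleens and 7.03, 6.90 and 6.73 in control spleens. Only control 1 reached the lowest DX2 value, and the difference of 0.23 (95% interval -0.05 to 0.51) had adjusted p = 0.399 (limma).

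Some members, and not others, had one order of arrays. In Fas, Tnfrsf9, Tnfrsf4 and Tnfrsf1b, DX2 1 was the lowest and DX2 2 the highest of all 6 arrays, which is 4 of 10 members against 6.13% of all genes. The other 6 members did not have this order, and in Tnfrsf21 and Tnfrsf25 DX2 1 read higher than DX2 2. This description was chosen after the values were seen. The DX2 spleens were more than 1 log2 unit apart for 3 of 10 members (Fas, Tnfrsf9 and Tnfrsf4), against 6.05% of all genes. The SD among DX2 spleens was 6.16 times that among controls for Tnfrsf9, 3.58 for Tnfrsf1b, 3.49 for Tnfrsf4 and 3.24 for Fas. It was 2.88 times for Tnfrsf10b, 1.71 for Cd27, 1.10 for Tnfrsf21, 0.85 for Tnfrsf25, 0.53 for Ltbr and 0.48 for Tnfrsf1a.

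Leaving out 1 array at a time showed which receptors rested on DX2 2 or DX2 1. The differences of Fas, Tnfrsf9 and Tnfrsf4 were negative without DX2 2 and largest without DX2 1. So was the smaller difference of Tnfrsf1b (-0.05 and 0.19), and that of Cd27 was smallest in size without DX2 1. Those of Tnfrsf21, Tnfrsf1a, Tnfrsf10b and Ltbr (0.15 to 0.30 for Ltbr) were positive whichever array was left out.

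**Figure D3:**
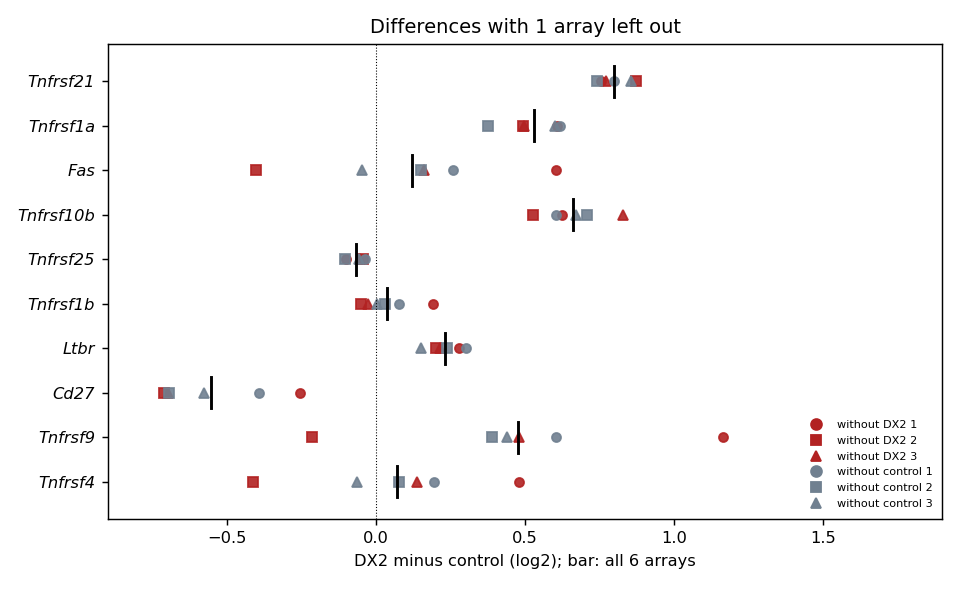
Difference of each receptor (DX2 minus control, log2, x axis) with each array left out in turn, the bar being the value from all 6 arrays. Tnfrsf21 stays between 0.74 and 0.87, whereas Tnfrsf9 runs from -0.21 without DX2 2 to 1.16 without DX2 1.

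T cell markers followed the same order in part. The mean of 10 T cell markers was 6.63, 8.10 and 7.88 in DX2 spleens and 8.09, 7.78 and 7.99 in control spleens. The mean of 7 markers of regulatory and activated T cells, among them Foxp3, Il2ra and Icos, was 6.53, 7.82 and 7.23 in DX2 spleens and 7.58, 7.26 and 7.09 in control spleens. DX2 1 was the lowest array for both lists, as for Fas, Tnfrsf9 and Tnfrsf4, while DX2 2 was level with control 1 for the first list (8.10 and 8.09). Single markers had the order of DX2 1 lowest and DX2 2 highest for 2 of 10 T cell markers, 3 of 7 markers of regulatory and activated T cells and 4 of 7 NK cell markers. Over all genes the share with that order was 6.13%. All 10 T cell markers were lower on average in DX2, and 0 were past the threshold (limma). Of the 10, 1 had an unadjusted p under 0.05, against 16% of all genes. The parts of T cell, neutrophil and erythroid content in the spread of the receptors were not tested.

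**Figure D4:**
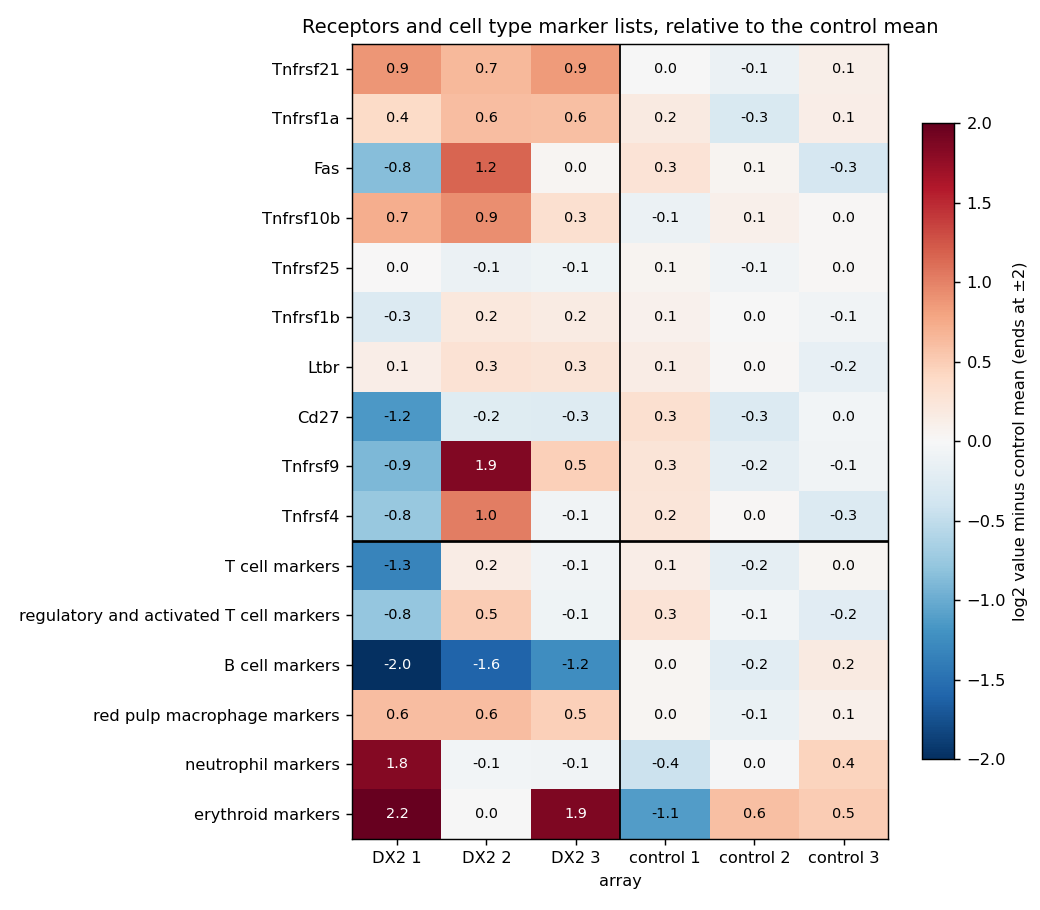
Values of the 10 receptors and means of 6 cell type marker lists on each array (columns, DX2 then control), as log2 value minus the mean of the 3 control arrays. Fas, Tnfrsf9, Tnfrsf4 and Cd27 are low in DX2 1 together with the T cell markers, and Tnfrsf21 is high in all 3 DX2 arrays.

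Gene order gave neighbours that can be set beside the members. Tnfrsf4 and Tnfrsf18, which encodes GITR, another costimulatory receptor of regulatory T cells, are next to each other on chromosome 4 with 0 protein-coding genes between them. Tnfrsf18 read 6.25, 7.56 and 6.64 in DX2 spleens and 6.97, 6.71 and 6.53 in control spleens, again with DX2 1 lowest and DX2 2 highest. Of the 18 other receptors of the family, 2 had that order, Tnfrsf18 and Eda2r, against 6.13% of all genes. Tnfrsf1b and Tnfrsf8, the gene of CD30, are neighbours on the same chromosome. Tnfrsf8 read 5.35, 7.70 and 5.94 in DX2 spleens and 6.52, 5.66 and 5.25 in control spleens, with control 3 the lowest array. On chromosome 6, Cd27, Ltbr and Tnfrsf1a lie in a row with 1 gene between each pair, yet their differences were -0.55, 0.23 and 0.53. Neighbours thus covered both signs, and Tnfrsf18 and Tnfrsf8 were named here for their position.

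The ligands of these receptors showed no common direction. Of 10 ligands, 5 were higher and 5 lower in DX2 (median difference 0.01). None passed (limma), and 2 had an unadjusted p under 0.05, against 16% of all genes. For none did the groups separate, against 10.7% of all genes with DX2 higher and 11.2% with DX2 lower. Lta, the lymphotoxin that binds both TNF receptors, read 5.13, 5.86 and 5.60 in DX2 spleens and 6.50, 5.75 and 6.15 in control spleens (difference -0.61, adjusted p = 0.281, limma). Tnfsf14, or LIGHT, a ligand of Ltbr, differed by 0.47 (adjusted p = 0.285). Tnfsf4, the ligand of OX40, differed by -0.55 (adjusted p = 0.385) and Tnfsf9, the ligand of CD137, by 0.46 (adjusted p = 0.594). Tnfsf9 read 6.57 in DX2 2 and between 5.05 and 5.30 on every other array, and Tnfrsf9 was also highest in DX2 2. Other pairs were mixed. Tnfrsf10b and its ligand Tnfsf10 were both highest in DX2 2 (5.53 and 7.03). Fas and Tnfrsf4 were highest there too, but Fasl was highest in control 1 (6.14) and Tnfsf4 in control 2 (4.84). Tnfsf10 and Fasl were named here as ligands of members and not by the naming rule.

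Other receptors of the family were mixed in direction. Of 18 measured, 10 were higher and 8 lower in DX2 (median 0.05), and 0 passed (limma). For 6 the unadjusted p was under 0.05, against 16% of all genes. Without overlap 2 were higher and 2 lower, against 10.7% and 11.2% of all genes. Tnfrsf12a, the receptor of TWEAK, read 5.76, 5.44 and 5.52 in DX2 spleens and 5.17, 4.90 and 5.28 in control spleens (difference 0.45, adjusted p = 0.192, limma), and Relt was also higher without overlap (0.27, adjusted p = 0.270). Tnfrsf14, a receptor of LIGHT, differed by 0.63 (adjusted p = 0.231). Tnfrsf13b, the B cell receptor TACI, was lower in every DX2 spleen, at 5.62, 6.75 and 6.70 against 7.18, 7.13 and 6.99 in control spleens (difference -0.75, adjusted p = 0.269), beside B cell markers that were lower in DX2 for 8 of 8 genes. The part of B cell content in that difference was not tested.

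Adaptors downstream of the receptors were mostly lower on average in DX2. The list mean was 7.04, 7.36 and 7.19 in DX2 spleens and 7.42, 7.31 and 7.38 in control spleens, so DX2 2 lay within the control range. Of 14 measured adaptors and ubiquitin ligases, 12 were lower and 2 higher (median -0.14), against 10727 lower of all 22180 genes. Of the 14, 0 passed (limma) and 2 had an unadjusted p under 0.05, against 16% of all genes. In every DX2 spleen 3 were lower than in any control spleen, which is 21.4% against 11.2% of all genes. Traf5, an adaptor of Cd27, Ltbr and Tnfrsf4, read 6.88, 6.91 and 6.88 in DX2 spleens and 7.60, 7.52 and 7.85 in control spleens. Its difference of -0.77 (SE 0.12) was nearest to the threshold (adjusted p = 0.0603, limma). Birc3, the ubiquitin ligase cIAP2 that TRAF2 recruits, read 8.22, 8.42 and 8.11 in DX2 spleens and 8.84, 8.80 and 8.92 in control spleens (difference -0.61, SE 0.12, adjusted p = 0.0829). Cradd differed by -0.23 (adjusted p = 0.373), with groups that did not overlap, and Traf6 by -0.28 (adjusted p = 0.390). Traf2, named here because AIMP2 binds its protein and not by the naming rule, read 7.28, 7.78 and 7.31 in DX2 spleens and 7.55, 7.53 and 7.50 in control spleens (difference -0.07, adjusted p = 0.861).

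Caspases and their brakes were mixed, with 5 of 9 higher and 4 lower (median 0.01) and 0 passing (limma). For 2 the unadjusted p was under 0.05, against 16% of all genes. Mlkl, the pore-forming protein of necroptosis, read 6.34, 7.54 and 7.16 in DX2 spleens and 6.23, 6.13 and 6.18 in control spleens (difference 0.83, adjusted p = 0.211). Cyld, a deubiquitinase that limits NF-kB signalling, was lower in every DX2 spleen (-0.46, adjusted p = 0.246). The initiator caspase Casp8 differed by -0.23 (adjusted p = 0.459) and its inhibitor Cflar by -0.20 (adjusted p = 0.595).

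Target genes of p53 include Fas and Tnfrsf10b, which were not counted in the list used here. In that list 11 of 12 measured genes were higher on average (median 0.30), against 11453 of all 22180 genes. The list mean was 6.41, 6.92 and 6.77 in DX2 spleens and 6.57, 6.44 and 6.32 in control spleens, so DX2 1 lay within the control range. Groups did not overlap for 2 of the 12, with DX2 higher, against 10.7% of all genes. Of the 12, 0 were past the threshold (limma) and 3 had an unadjusted p under 0.05, against 16% of all genes. Bbc3, the death protein PUMA, read 5.06, 5.18 and 5.13 in DX2 spleens and 4.82, 4.85 and 4.76 in control spleens (difference 0.31, adjusted p = 0.197). Sesn2, a stress-induced inhibitor of mTORC1 signalling, was also higher in every DX2 spleen (0.54, adjusted p = 0.218). The cell cycle inhibitor Cdkn1a read 6.37, 7.61 and 7.28 in DX2 spleens and 6.60, 6.29 and 6.09 in control spleens (difference 0.76, adjusted p = 0.289), and Perp differed by 0.39 (adjusted p = 0.396).

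Target genes of NF-kB that TNF induces had 7 of 11 lower and 4 higher (median -0.19), with 0 past the threshold (limma). Of the 11, 2 had an unadjusted p under 0.05, namely Birc3 and Vcam1, against 16% of all genes. Vcam1, which is also a red pulp macrophage marker, differed by 0.49 (adjusted p = 0.141), Relb by -0.25 (0.469) and the inhibitor Nfkbia by -0.27 (0.525). DX2 1 was the lowest and DX2 2 the highest array for 6 of 11 of these genes, against 6.13% of all genes. This was the order seen in Fas, Tnfrsf9 and Tnfrsf4.

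**Figure D5:**
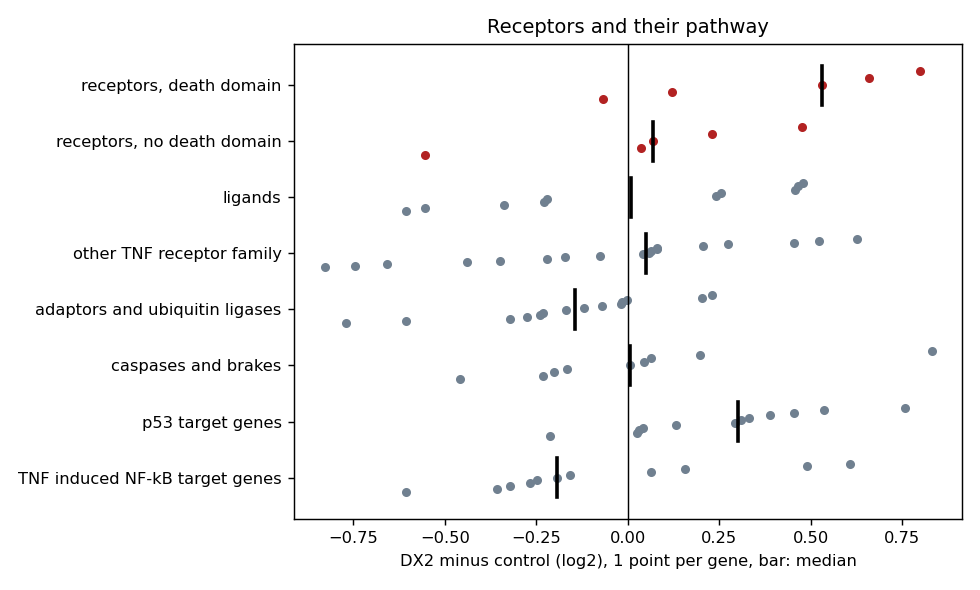
Differences (DX2 minus control, log2, x axis) of the receptors and of 6 pathway lists, 1 point per gene with the list's median as a bar. The medians run from 0.53 for the death domain receptors to -0.19 for the NF-kB target genes, and no gene shown passed an adjusted p of 0.05.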

How the data were processed

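The authors deposited 1 table of RMA expression values for 6 spleen arrays. RMA, per the submitters' processing notes, corrects background, normalizes the arrays to each other and summarises probes. Its version and software are not stated in the labels. That the deposited values are log2 was inferred from their range. Large differences are compressed by RMA, and a shift shared by most transcripts would be removed. Arrays have no depth, and precision is limited by how many there are.

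Of 41345 probe sets in the table, 23521 had 1 gene symbol in the platform annotation supplied, 1814 had several and 16010 had none. Genes were named from the first kind only, 22180 in all, each by its probe set of highest mean. By Entrez number, 23328 of the 23521 were found in the RefSeq table (GRCm38.p6). DX2 was tested against control over all genes with limma 3.58.1 in R 4.3.3 (lmFit, eBayes, no covariate, no filter on low values), Benjamini-Hochberg, threshold 0.05. The median standard error was 0.14. The procedure was tested on simulated data with independent noise and planted effects larger than any receptor's difference, which cannot tell how it does at the sizes reported. Exact permutation of 3 against 3 arrays cannot go below p = 0.1. The labels call the samples biological replicates.

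The receptors, gene lists and tests were chosen with earlier results of these data known. All receptors were named, and from each pathway list (ligands, other receptors, adaptors, caspases and brakes, p53 targets, NF-kB targets) up to 4 genes of smallest unadjusted p. Genes most like a receptor came from those with 1 symbol, no predicted name and an SD of at least 0.3 over the 6 arrays, for the receptors with the largest difference in each direction. Marker lists were averaged per array as a description, also for NK, plasma, monocyte and dendritic, stromal and pancreas cells, whose mean differences were -0.28, -0.07, 0.01, 0.11 and 0.10, and for erythroid cells (1.33). Deviations of same-numbered arrays correlated at -0.32, -0.14 and 0.07 across genes. With 3 arrays per group and mixed sex in the controls, these values cannot show whether the replicate numbers pair the arrays. Alternatives were the replicate block, each array left out, a filter on dim genes, other variance models, array weights, other normalizations, other probe set choices, a sex term, the arrays with high Y-linked transcripts only, and other thresholds. Background correction could not be varied from processed values.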

Additional observations from a re-analysis of the deposited data

How the results depend on the processing

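No member passed as reported, and 1 of them, Tnfrsf21, passed when the dimmest genes were left out, with array weights, after a second quantile normalization, without DX2 2 and at an adjusted p under 0.1. Without 1 array, 0 to 1 members and 1 to 370 genes passed, against 70 genes as reported (8 higher and 62 lower). The 370, without DX2 2, were 198 higher and 172 lower. The count of genes was 1 with the replicate block, 125 with the dimmest genes left out (28 higher and 97 lower), 547 with array weights (219 higher and 328 lower), 2 with centred arrays, 2 with a sex term, 0 in the arrays with high Y-linked transcripts only (where the spread of the 1 control is taken from the DX2 arrays) and 394 at an adjusted p under 0.1. After a second quantile normalization it was 20 higher and 64 lower. The sex term and the high Y-linked arrays give the same differences by construction. The block left every member on its side of the threshold (Tnfrsf21 at 0.80, adjusted p = 0.200, limma), and whether the shared numbers are a pairing is not known. Tnfrsf21, Tnfrsf1a, Tnfrsf10b, Ltbr and Cd27 kept their direction under every alternative run, 0.68 to 0.89, 0.38 to 0.62, 0.50 to 0.83, 0.15 to 0.39 and -0.71 to -0.25, except that Tnfrsf10b was removed by the filter on dim genes. Differences that turned were Tnfrsf25, to 0.03 after both renormalizations (0.034 and 0.025), and Tnfrsf4, to -0.0079 with array weights. Without 1 array Fas ran from -0.40 to 0.60, Tnfrsf1b from -0.050 to 0.19, Tnfrsf9 from -0.21 to 1.16, Tnfrsf4 from -0.41 to 0.48 and Tnfrsf25 from -0.11 to -0.04. The cause was not tested.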
